A study of Mus musculus with 18 samples.

Results

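The 10 genes studied here, which macrophages and monocytes use, were followed in RNA of colon epithelium that had been sorted by flow cytometry: Lyz2, C1qa, C1qb, C1qc, Fcer1g, Tyrobp, Cd68, Csf1r, Itgam and Cd14. Every probe listed under one of these symbols was taken, and Lyzs and Lyz were accepted as older names of Lyz2, which gave 14 probes for 10 of the 31165 genes named on the array. Of these, 12 probes of 9 genes were above background often enough to be tested, against 15757 genes tested in all, and the single Itgam probe was not. The study was on C57BL/6 mice, and its methods describe a sort for EpCAM+ cells that lacked CD45, CD3 and the macrophage antigen encoded by Adgre1, so the gate was set to keep epithelial cells and to turn away leukocytes. The 4 groups were WT and Mbd2KO mice, the latter lacking the methyl-CpG-binding protein Mbd2 in the whole animal and not in the epithelium alone, each either naive or given 2% dextran sulphate sodium (DSS) in drinking water. DSS is a polymer that injures the colonic lining and causes colitis. Each group had 4 samples, and a sample could pool several mice.

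The members stand for different tasks of mononuclear phagocytes. C1qa, C1qb and C1qc encode the chains of C1q, the recognition unit of the classical complement pathway, which tissue macrophages make in large amounts. Fcer1g and Tyrobp encode the small ITAM adaptors (the Fc receptor gamma chain and DAP12) that carry the signals of activating receptors on myeloid cells. Csf1r is the receptor for the growth factors that keep macrophages alive, Cd14 is a co-receptor for bacterial lipopolysaccharide, Itgam is the CD11b chain of an adhesion receptor, Cd68 is a glycoprotein of lysosomal membranes, and Lyz2 is the lysozyme of phagocytes. Blood monocytes enter the colon and mature into macrophages in the lamina propria, which lies directly under the epithelium, and far more monocytes arrive when the colon is inflamed.

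Each probe was a DNA stretch of 50 bases. The C1q probes are shown because the 3 genes are relatives that lie side by side on chromosome 4, and a shared sequence would have tied their signals together. In GRCm38.p6 (RefSeq), C1qb lies at chr4:136880126-136886200, C1qc at chr4:136889801-136892936 and C1qa at chr4:136895916-136898844. The deposited table puts the probes on the minus strand of chromosome 4 at 136452139 to 136452188 (C1qa), 136436367 to 136436416 (C1qb) and 136446132 to 136446181 (C1qc), in a genome build that it does not name. The probes read 5′ to 3′:
C1qa: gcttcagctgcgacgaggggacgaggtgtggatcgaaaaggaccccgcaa
C1qb: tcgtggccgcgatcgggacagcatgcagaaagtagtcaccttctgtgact
C1qc: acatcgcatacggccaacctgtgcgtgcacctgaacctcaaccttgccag
The longest run of bases that any pair of them shared was 5.

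The lysozyme probes were a different case. Lyz2 has a close neighbour, Lyz1, the lysozyme of Paneth cells, and both lie on chromosome 10 (Lyz2 at chr10:117277541-117282272 and Lyz1 at chr10:117287795-117292868 in GRCm38.p6). The first probes of these 2 genes begin at the same transcript position, 133, and are set under each other here, with the bases that differ in capitals:
Lyz2: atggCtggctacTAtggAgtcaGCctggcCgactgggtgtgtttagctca
Lyz1: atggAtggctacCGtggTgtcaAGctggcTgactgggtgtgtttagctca
They match at 43 of 50 bases, with the longest shared run being 20. Counted from 1 at the 5′ end, the changes from the Lyz2 probe to the Lyz1 probe were C5A, T13C, A14G, A18T, G23A, C24G and C30T. The probe listed as Lyzs and the second Lyz1 probe matched at 43 of 48 aligned bases. A further probe was listed as Lyz, but its Entrez identifier and its transcript were those of Lyz1, and no other lysozyme probe shared a run of more than 6 bases with it. Its position in the file lay 22.4 kb from the Lyzs probe, whereas the second Lyz1 probe lay 10.5 kb from it. Since the table contradicts itself on this probe, the value of Lyz2 was taken from the probe listed as Lyz2, and the Lyz probe is given separately.

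Promoters from RefSeq (GRCm38.p6) were available for 6 of the 10 members. They were searched for GGAAGT, the core to which ETS factors bind, a family that includes the myeloid regulator PU.1. The window ran from 250 bases before to 50 bases after the listed start, and both strands were read. The motif stood in 4 of the 6 (C1qb, C1qc, Lyz2 and Cd68) and in 23.8% of all 32851 promoters in the table. The longer GAGGAAGT, which contains it, stood in 1 of the 6, C1qc, and in 3.2% of all promoters. The 250 bases before the start are shown for the members in which the motif lay upstream, with it in capitals on the strand of the gene, where it appears as ACTTCC. C1qb is chr4:136886201-136886450, C1qc is chr4:136892915-136893164 and Lyz2 is chr10:117282273-117282522, all on the minus strand:
C1qb: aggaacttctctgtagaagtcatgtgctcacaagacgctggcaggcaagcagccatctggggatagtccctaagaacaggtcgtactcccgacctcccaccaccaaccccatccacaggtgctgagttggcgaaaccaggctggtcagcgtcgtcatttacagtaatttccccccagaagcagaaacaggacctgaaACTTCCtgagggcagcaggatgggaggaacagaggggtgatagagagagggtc
C1qc: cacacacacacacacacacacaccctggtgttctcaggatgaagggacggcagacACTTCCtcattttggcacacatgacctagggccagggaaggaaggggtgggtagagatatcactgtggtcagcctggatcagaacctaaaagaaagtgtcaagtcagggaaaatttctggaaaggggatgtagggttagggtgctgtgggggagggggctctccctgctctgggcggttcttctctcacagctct
Lyz2: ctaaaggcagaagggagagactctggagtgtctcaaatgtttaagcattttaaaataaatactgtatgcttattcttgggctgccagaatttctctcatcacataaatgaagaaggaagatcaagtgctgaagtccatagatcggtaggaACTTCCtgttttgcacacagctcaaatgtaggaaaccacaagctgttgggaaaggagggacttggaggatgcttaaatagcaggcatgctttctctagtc
A match of letters is a description of the window and says nothing of binding in these cells. The Lyz1 promoter held the motif at the same distance from its start as Lyz2, and 152 of the 250 upstream bases were the same in both genes.

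The table covered 18 arrays with 18851 to 20618 detected probes each, and the mean of the negative control probes lay between 101 and 134 intensity units. Signals are given on the log2 scale after background correction, where a difference of 1 is 2-fold. No array detected the single Mbd2 probe (lowest detection p 0.151), so the genotype labels could not be checked with it. The sorted antigens were read in part: Epcam was detected on 18 of 18 arrays, Ptprc (CD45) and Cd3e on 3 each, and Adgre1 on 14. The other CD3 genes, Cd3d and Cd3g, were above background often enough to be tested, as were Epcam and Adgre1. Adgre1 was detected on 2 of 4 arrays in each naive group and on all 10 arrays of the DSS groups. Arrays named 4R and 5R were averaged with array 4 (DSS WT) and array 5 (DSS Mbd2KO), so the 18 arrays gave 16 samples. In RNA from many cells, a change in the number of cells of a type cannot be told apart from a change of RNA per cell. A sample could pool mice and the labels do not tie samples to animals, so p-values measure the spread between these samples.

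The members were higher with DSS in WT epithelium. Of the 9 tested genes, 8 were called (adjusted p under 0.01 and an absolute log2 fold change of 1 or more), and all 8 were higher with DSS. Over all genes tested, 1.91% were called in this comparison. The same 8 passed at an adjusted p under 0.05, where the share over all genes was 10.8%. In these 8 genes no DSS WT sample overlapped with a naive WT sample, which held for 17.7% of all genes. The median log2 fold change was 1.67 over the 9 members and 0.0074 over all genes tested. The exception was Cd14.

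**Figure D1:**
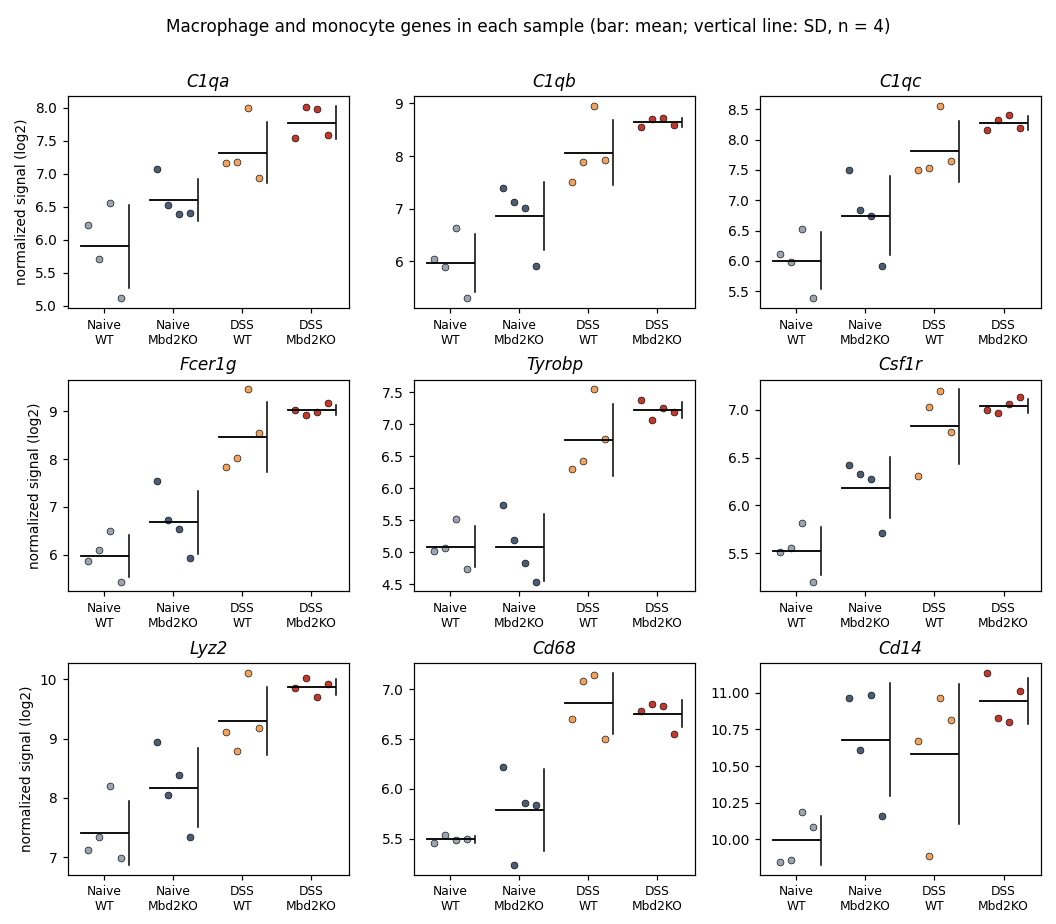
Log2 normalized signal of the 9 tested members in each of the 16 samples, in the order of the sample numbers within a group. Horizontal bars are group means and vertical lines are SDs (n = 4). In 8 panels both DSS groups lie above the naive group of their genotype without overlap, whereas the groups overlap for Cd14.

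The complement genes moved side by side. C1qb, the B chain, read 6.04, 5.88, 6.64 and 5.29 in naive WT samples 9 to 12 and 7.50, 7.89, 8.95 and 7.92 in DSS WT samples 1 to 4. Sample 3 was the highest and sample 12 the lowest, and the groups were well apart. The means were 5.97 ± 0.55 and 8.07 ± 0.62 (SD, n = 4), and C1qb differed by 2.10 on the log2 scale (SE 0.33, adjusted p = 0.00102), or 4.29-fold. C1qc, the C chain, read 6.11, 5.99, 6.52 and 5.38 in naive and 7.50, 7.53, 8.56 and 7.65 in DSS samples, a change of 1.81 (SE 0.30, adjusted p = 0.00149). C1qa, the A chain, read 6.22, 5.71, 6.56 and 5.11 against 7.15, 7.18, 7.99 and 6.93, a change of 1.41 (SE 0.28, adjusted p = 0.00435). In all 3 genes sample 3 stood above the other DSS WT samples, and sample 12 below the other naive ones. The call of C1qa was the weakest: it was lost without naive WT sample 10, naive WT sample 12 or DSS WT sample 3, with log2 fold changes of 1.35, 1.15 and 1.19 and adjusted p of 0.0154, 0.0138 and 0.0159.

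The ITAM adaptors rose too, and Fcer1g had the largest change of the 9 members. Fcer1g lies at chr1:171229572-171234349 and Tyrobp at chr7:30413782-30417582 in GRCm38.p6. Fcer1g read 5.88, 6.10, 6.49 and 5.43 in naive WT samples 9 to 12 and 7.82, 8.01, 9.46 and 8.54 in DSS WT samples 1 to 4. The lowest DSS sample was more than 1 unit above the highest naive one. The group means were 5.98 ± 0.44 and 8.46 ± 0.73 (SD, n = 4), so that Fcer1g differed by 2.48 on the log2 scale (95% confidence interval 1.78 to 3.19, SE 0.33, adjusted p = 0.000464), or 5.59-fold. Such folds depend on the background that is taken off: the mean intensity of Fcer1g before correction was 150.3 in naive WT, close to the negative controls. Without the correction Fcer1g gave 1.48 and C1qb 1.18, and both were still called, as was Lyz2. The calls of C1qc (0.99), C1qa (0.69), Tyrobp (0.66), Cd68 (0.58) and Csf1r (0.56) in WT were lost without it. Tyrobp read 5.03, 5.07, 5.52 and 4.74 against 6.30, 6.42, 7.55 and 6.77, with means of 5.09 ± 0.32 and 6.76 ± 0.56. The difference was 1.67 (SE 0.26, adjusted p = 0.00110), or 3.18-fold. Tyrobp was close to background without DSS: it was detected on 3 of 4 naive WT arrays, 2 of 4 naive Mbd2KO arrays and all 10 arrays with DSS.

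The growth factor receptor and the lysosomal genes followed. Csf1r read 5.51, 5.55, 5.81 and 5.20 in naive and 6.31, 7.03, 7.20 and 6.77 in DSS WT samples by its brighter probe, which differed by 1.31 (SE 0.19, adjusted p = 0.000615). Its dimmer probe, which lies further from the end of the transcript, was detected on 0 of 4 naive WT arrays and 3 of 5 DSS WT arrays, and gave 0.40 (SE 0.22, adjusted p = 0.258). That probe passed the detection limit mainly through the DSS arrays, so its value supports no direction. The call of Csf1r in WT was lost with an offset of 50 (0.89), with the mean of both probes (0.85) and without background correction (0.56). Lyz2 read 7.13, 7.34, 8.20 and 6.98 against 9.11, 8.79, 10.11 and 9.18. Its means were 7.41 ± 0.54 and 9.30 ± 0.57 (SD, n = 4), a difference of 1.88 (SE 0.32, adjusted p = 0.00190). Cd68, at chr11:69664213-69666170 in GRCm38.p6, was nearly constant without DSS, at 5.46, 5.54, 5.49 and 5.50, and read 6.71, 7.08, 7.15 and 6.50 with it. That difference of 1.36 (SE 0.18, adjusted p = 0.000439) had the smallest p among the members in WT.

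Cd14 and Itgam stood apart from the rest. Cd14 was detected on all 18 arrays and read 9.85, 9.86, 10.19 and 10.08 in naive WT and 10.67, 9.89, 10.96 and 10.81 in DSS WT samples. DSS sample 2 lay within the naive range, and the log2 fold change of 0.59 (SE 0.21, 95% confidence interval 0.14 to 1.04) did not pass (adjusted p = 0.0875). Itgam was at background on all 18 arrays, with a lowest detection p of 0.112. Its log2 signal stayed between 4.33 and 4.70 in the 16 samples, so no level or fold can be given for it, and it was not tested.

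In Mbd2KO epithelium the same 8 genes were higher with DSS, but fewer passed the call. Of the 9 tested members, 5 were called (Fcer1g, Tyrobp, C1qb, C1qc and Lyz2), against 1.92% of all genes tested, and 8 had an adjusted p under 0.05, against 9.84% of all genes. In those 8 no DSS sample overlapped with a naive one, which held for 16.2% of all genes. The median log2 fold change was 1.53 over the members and -0.010 over all genes.

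Fcer1g read 7.53, 6.72, 6.53 and 5.93 in naive Mbd2KO samples 13 to 16 and 9.03, 8.92, 8.99 and 9.16 in DSS Mbd2KO samples 5 to 8, a change of 2.35 (SE 0.33, adjusted p = 0.000647). Tyrobp read 5.74, 5.19, 4.83 and 4.54 against 7.37, 7.06, 7.25 and 7.19, a change of 2.14 (SE 0.26, adjusted p = 0.000328). The naive samples were spread over more than 1 unit in both genes, while the DSS samples lay close together. C1qb went from 6.86 ± 0.65 to 8.64 ± 0.087 (log2 fold change 1.78, SE 0.33, adjusted p = 0.00340), and C1qc from 6.74 ± 0.65 to 8.27 ± 0.12 (1.53, SE 0.30, adjusted p = 0.00477). Lyz2 read 8.94, 8.05, 8.38 and 7.34 against 9.85, 10.02, 9.70 and 9.92, a change of 1.70 (SE 0.32, adjusted p = 0.00406). The calls of Fcer1g and Tyrobp held without any single sample of these groups. Without background correction, however, Tyrobp (0.90) and C1qc (0.95) fell short of the fold limit and lost their calls. C1qc lost its call without naive sample 14, 15 or 16 or any of the DSS samples 5 to 8 (adjusted p 0.0115 to 0.0152), Lyz2 without naive sample 14 or 16 or DSS sample 5, 6 or 8 (0.0134 to 0.0155), and C1qb without DSS sample 5, 6 or 8 (0.0106 to 0.0119). The number of members called thus fell from 5 to 2 without DSS sample 5 or 6 and to 3 without naive sample 14 or 16 or DSS sample 8, and it was 7 without naive sample 13, while 8 kept an adjusted p under 0.05 in each of these fits.

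Of the 4 tested members not called in Mbd2KO, C1qa, Cd68 and Csf1r passed 1 of the 2 limits of the call and Cd14 neither. C1qa changed by 1.18 (SE 0.28) with an adjusted p of 0.0133. Cd68 changed by 0.97 (SE 0.18, adjusted p = 0.00340) and Csf1r by 0.86 (SE 0.19, adjusted p = 0.00967), both short of the fold limit of 1. Cd14 read 10.97, 10.61, 10.98 and 10.16 in naive and 11.14, 10.83, 10.80 and 11.01 in DSS samples, a difference of 0.26 (SE 0.21, adjusted p = 0.477). Naive samples 13 and 15 were above DSS samples 6 and 7, so the groups of Cd14 overlapped again.

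**Figure D2:**
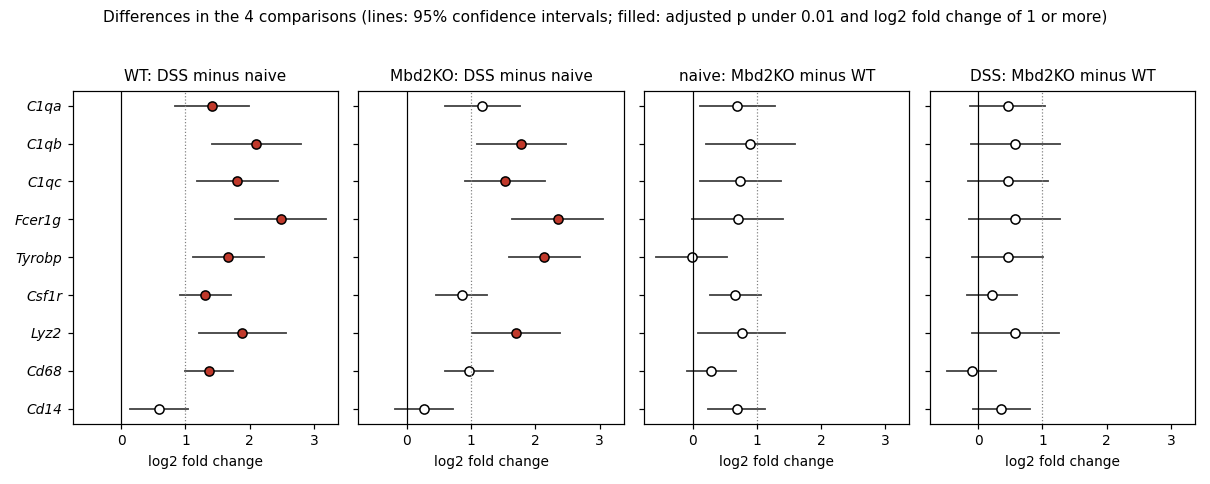
Log2 fold changes of the 9 tested members in the 4 comparisons, with 95% confidence intervals as lines and filled points for called genes. DSS against naive gave 8 called members in WT and 5 in Mbd2KO, and neither comparison of the genotypes gave any.

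Mbd2KO and WT epithelium were compared in the naive state and with DSS. With DSS, 0 of the 9 members were called (0.888% of all genes), 0 had an adjusted p under 0.05 (5.6% of all genes) and 0 had groups that did not overlap (14.9% of all genes). By limma, 0 members had an unadjusted p under 0.05, against 21.5% of all genes. The log2 fold changes lay between -0.10 (Cd68) and 0.58 (Lyz2), with a median of 0.46 over the members and -0.019 over all genes, and 8 of 9 were above 0. The smallest adjusted p was 0.311. The intervals were wide: for Lyz2 the difference of 0.58 had a 95% confidence interval of -0.10 to 1.26, and for C1qb the difference of 0.58 had one of -0.12 to 1.27. Leaving out DSS WT sample 3 raised the median to 0.71, and the number of members called remained 0.

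Without DSS the members tended to be higher in Mbd2KO than in WT, and the differences did not pass the call. Of the 9 members, 0 were called (0.723% of all genes) and 0 had groups that did not overlap (12.4% of all genes). By limma, 6 members had an unadjusted p under 0.05, against 23% of all genes. Only Csf1r had an adjusted p under 0.05, against 5.43% of all genes: it read 6.42, 6.33, 6.28 and 5.71 in naive Mbd2KO and 5.51, 5.55, 5.81 and 5.20 in naive WT samples, a difference of 0.67 (SE 0.19, adjusted p = 0.0486). Only Mbd2KO sample 16 lay within the WT range. C1qb differed by 0.90 (SE 0.33, adjusted p = 0.117), Lyz2 by 0.76 (SE 0.32, adjusted p = 0.169), C1qc by 0.75 (SE 0.30, adjusted p = 0.148), C1qa by 0.70 (SE 0.28, adjusted p = 0.144) and Cd14 by 0.69 (SE 0.21, adjusted p = 0.0702). Of the ITAM adaptors, Fcer1g differed by 0.70 (SE 0.33, adjusted p = 0.223) and Tyrobp by -0.012 (SE 0.26, adjusted p = 0.985). The median over the members was 0.70, against -0.010 over all genes, and it fell to 0.33 without background correction. The Csf1r result was lost in most other fits: the number of members with an adjusted p under 0.05 was 0 without any of samples 9 to 15 in turn, 4 without sample 16, and 0 in 7 of 12 other settings.

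The response to DSS was not shown to differ between the genotypes. Of the 9 members, 0 were called for the interaction of genotype and DSS, as were 0% of all genes by limma, where 0 members and 10.6% of all genes had an unadjusted p under 0.05. The DSS effect was smaller in Mbd2KO than in WT for 8 of 9 members, with a median difference of -0.28 against -0.023 over all genes. The estimates ran from -0.45 for Csf1r (95% confidence interval -1.01 to 0.11) to 0.47 for Tyrobp (-0.31 to 1.26), and the smallest adjusted p was 0.575. The signs of C1qa, C1qb, Fcer1g and Lyz2 turned under other settings or without single samples. Both comparisons with DSS share their samples with those between genotypes, so the signs are not separate pieces of evidence.

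In 3 of the 4 groups the same samples were highest or lowest in most members. DSS WT sample 3 was the highest of its group in 9 of 9 members, naive WT sample 11 in 8 and naive Mbd2KO sample 13 in 8. The lowest sample was naive WT sample 12 in 7 of 9 and naive Mbd2KO sample 16 in 7 of 9. In DSS Mbd2KO no order was shared, as each of samples 5 to 8 was the highest in 2 or 3 members and the lowest in 1 to 3. The mean log2 signal over the members ran from 7.67 to 8.66 in DSS WT samples, and only from 8.37 to 8.42 in DSS Mbd2KO samples. The naive samples lay between 5.97 and 6.82 in WT and between 6.42 and 7.53 in Mbd2KO, so naive Mbd2KO sample 13 (7.53) came close to DSS WT sample 1 (7.67). With the mean z-score of the 9 members as the common pattern over 16 samples, C1qc (Pearson r 0.99), C1qb (0.99), Lyz2 (0.99) and Fcer1g (0.99) lay closest to it, and Cd68 (0.89) and Cd14 (0.76) furthest from it. After the group means were taken out, r was 0.97 for C1qc, 0.65 for Cd14 and 0.40 for Cd68. The first set of values describes the 4 groups together, each member is part of the pattern, and the samples fall into clusters by treatment.

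The 5 genes outside the members with the most similar pattern over the 16 samples were Fcgr2b (Pearson r 0.98), an inhibitory Fc receptor, Ccl4 (0.98), a chemokine, LOC100048554 (0.97), Serpina3g (0.97), a protease inhibitor, and Ms4a6d (0.97). Their log2 fold changes with DSS in WT ran from 1.88 for Fcgr2b to 3.42 for LOC100048554, and in Mbd2KO from 1.48 to 2.32.

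The lysozyme probes were read separately. The probes listed as Lyzs and Lyz gave log2 fold changes with DSS of 1.67 (SE 0.37, adjusted p = 0.00973) and 1.78 (SE 0.27, adjusted p = 0.000869) in WT, beside 1.88 for the probe listed as Lyz2. In Mbd2KO they gave 1.73 (SE 0.37, adjusted p = 0.00849) and 1.45 (SE 0.27, adjusted p = 0.00369), so all 3 were called in both genotypes. A further Lyzs probe, which overlapped the first by 25 bases, was detected on 0 of 18 arrays.

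The Lyz1 probes, 1 of which differs from the Lyz2 probe at 7 bases, were not called in any comparison. The first Lyz1 probe read 4.68, 5.04, 6.17 and 5.78 in naive WT, 4.90, 5.65, 5.76 and 5.37 in DSS WT, 6.31, 5.23, 6.01 and 6.52 in naive Mbd2KO, and 6.95, 7.16, 7.41 and 5.74 in DSS Mbd2KO samples. Its difference with DSS in WT was close to 0 (0.0062, 95% confidence interval -0.78 to 0.79), and the second Lyz1 probe gave 0.19 (-0.54 to 0.92) there. With DSS both were higher in Mbd2KO than in WT, by 1.39 (SE 0.37, adjusted p = 0.0376) and 1.49 (SE 0.35, adjusted p = 0.0194), which did not reach the adjusted p of the call. The probe listed as Lyz read 9.11, 9.37, 10.17 and 9.18 in naive WT and 10.86, 11.02, 11.74 and 11.32 in DSS WT samples, and did not overlap between them, as was the case for the Lyz2 probe. In the same comparison the groups of both Lyz1 probes overlapped, whereas the second Lyz1 probe did not overlap between DSS Mbd2KO and either DSS WT or naive Mbd2KO.

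**Figure D3:**
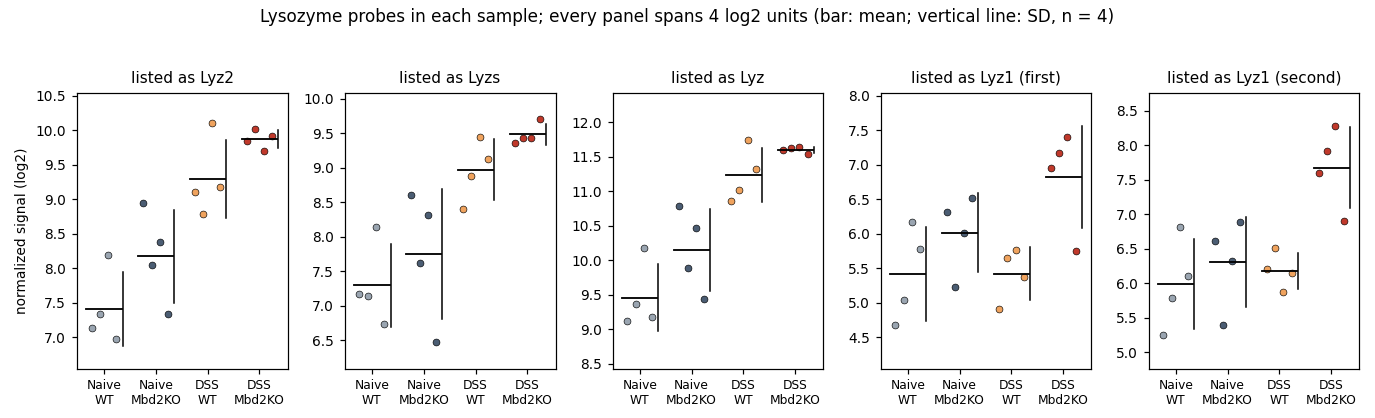
Log2 normalized signal of 5 lysozyme probes in each sample, with group means as bars and SDs as vertical lines (n = 4); every panel spans 4 log2 units. The probes listed as Lyz2, Lyzs and Lyz are higher with DSS in both genotypes, and both Lyz1 probes have their highest mean in DSS Mbd2KO samples and overlap between DSS and naive WT samples.

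Genes related to the members were counted by role. Among partners of the ITAM adaptors, 14 of 20 listed genes were tested. In WT, 4 were called and all were higher with DSS: the Fc receptors Fcgr4 (log2 fold change 2.20, adjusted p = 0.000660), Fcgr2b (1.88, adjusted p = 0.000245) and Fcgr3 (1.36, adjusted p = 0.00567), and the lectin receptor Clec4n (1.53, adjusted p = 0.00189). Fcgr4 and Fcgr3 need the product of Fcer1g to reach the cell surface, while Fcgr2b carries its own inhibitory motif. In Mbd2KO the 3 Fc receptors were called: Fcgr4 at 2.67, Fcgr3 at 1.80 and Fcgr2b at 1.48. The median of the list was 0.25 in WT and 0.32 in Mbd2KO, and 10 of the 14 did not pass in WT.

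In the complement list, 9 of 15 genes were tested and 2 were called as higher in WT with DSS: C3, on which the pathways converge (1.75, adjusted p = 0.00214), and C4b, the next substrate of the classical pathway (1.40, adjusted p = 0.00387). C3 was also called in Mbd2KO (1.62, adjusted p = 0.00384). C2, the serine protease that joins C4b in the convertase, was the only gene of the list called between genotypes, and it was higher in Mbd2KO with DSS (2.22, adjusted p = 0.00301) and without it (2.29, adjusted p = 0.00207). C1ra, a protease that C1q carries, was detected on 0 of 18 arrays.

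Around Csf1r, 8 of 10 genes were tested and 0 were called in any of the 4 comparisons. The receptor's ligands, named here after their values were seen, changed in WT with DSS by less than the fold limit: Il34 by 0.84 (adjusted p = 0.00556) and Csf1 by 0.82 (adjusted p = 0.00448). In Mbd2KO, Il34 gave 0.46 (adjusted p = 0.101) and Csf1 -0.0028 (adjusted p = 0.994). For the interaction, 0 of the 8 tested genes had an adjusted p under 0.05 by limma, so the response of the ligands was not shown to differ between the genotypes. Around Cd14, 15 of 16 genes were tested. The cytokines Il1b (2.56, adjusted p = 0.000464) and Tnf (1.21, adjusted p = 0.000894) and the lipopolysaccharide carrier Lbp (1.90, adjusted p = 0.00164) were called as higher in WT, and Il1b (2.12, adjusted p = 0.00159) in Mbd2KO, while the medians were 0.41 and 0.25.

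Of the leukocyte integrins and their ligands, listed because Itgam is such an integrin, 8 of 13 were tested. The 2 called in each genotype were ligands, Vcam1 (2.10 in WT and 1.60 in Mbd2KO) and Icam1 (1.59 and 1.30). In the lysosomal list, 13 of 15 genes were tested. Its only gene called as higher was the one read by the probe listed as Lyz. As lower with DSS, 0 were called in WT and 1 in Mbd2KO. At an adjusted p under 0.05, 1 gene was lower in WT and 2 in Mbd2KO. The median of this list was 0.037 in WT and 0.075 in Mbd2KO.

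Other genes of monocytes and macrophages were called as well. Of 30 listed genes, 21 were tested and 11 were called as higher in WT with DSS, led by Clec7a, the receptor for fungal beta-glucan (2.14, adjusted p = 0.000288), Gpnmb, a membrane glycoprotein (1.92, adjusted p = 0.000287), Mpeg1, a pore-forming protein (1.83, adjusted p = 0.000759), and Ly6c1 (1.71, adjusted p = 0.00861). In Mbd2KO 7 were called as higher, among them Clec7a (2.09), Ly6c1 (2.01), Mpeg1 (1.88) and Lst1 (1.82), and 0 were called as lower in either genotype. The list medians were 1.06 and 0.68. Between genotypes 0 were called with DSS and 0 without it. Ccr2, Cybb, Vsig4 and C3ar1 were detected on 0 of 18 arrays.

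**Figure D4:**
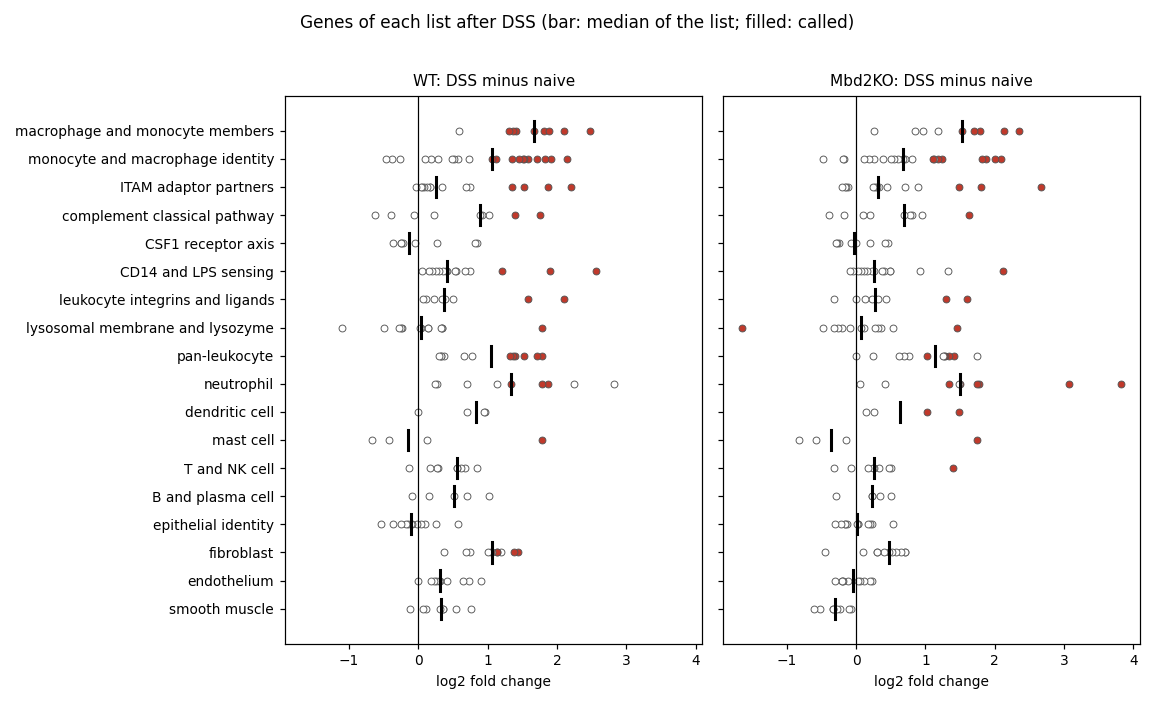
Log2 fold change of every tested gene of each list, DSS against naive, in WT (left) and Mbd2KO (right); black bars are list medians and filled points are called genes. The median of the members is 1.67 in WT and 1.53 in Mbd2KO, and that of the epithelial list lies near 0 in both.

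Markers of other cell types moved with DSS beside the members. Of 12 tested pan-leukocyte genes, 6 were called as higher in WT (median 1.04) and 5 in Mbd2KO (median 1.14), among them Coro1a, which binds actin in leukocytes, at 1.53 and 1.34. Of 9 tested neutrophil genes, 3 were called in WT (median 1.34) and 6 in Mbd2KO (median 1.50), where S100a8 and S100a9, the chains of calprotectin, changed by 3.82 and 3.07. In WT they gave 2.82 (adjusted p = 0.0173) and 2.25 (adjusted p = 0.0295), and 0 neutrophil genes passed for the interaction at an adjusted p under 0.05 by limma. The mean log2 signal over the neutrophil genes was 4.88 in naive WT and 4.99 in naive Mbd2KO samples, near background. The size of their folds therefore depends on the background correction. Of 9 tested T and NK cell genes, 0 were called in WT and 1 in Mbd2KO (Prf1), of 5 B and plasma cell genes 0 in either, and of 4 dendritic cell genes 0 in WT and 2 in Mbd2KO (Clec10a and Siglech). At an adjusted p under 0.05, 4 T and NK cell genes were higher in WT (median 0.56) and 1 in Mbd2KO (median 0.26), 1 B and plasma cell gene in WT (median 0.52) and 0 in Mbd2KO (median 0.24), and 3 dendritic cell genes in WT (median 0.83) and 2 in Mbd2KO (median 0.64). The 1 mast cell gene called, Hdc, also stands in the neutrophil list, and 6 of the 11 mast cell genes were detected on 0 of 18 arrays. At an adjusted p under 0.05, 1 mast cell gene was higher and 1 was lower with DSS in each genotype. The mast cell protease Cma1, named after its values were seen, was detected on 14 arrays and gave -0.42 (adjusted p = 0.647) in WT and -0.57 (adjusted p = 0.526) in Mbd2KO. Adgre1 changed by 1.51 in WT (SE 0.27, adjusted p = 0.00253) and by 1.13 in Mbd2KO (SE 0.27, adjusted p = 0.0162). Of the 4 tested sort antigens, 3 (Adgre1, Cd3d and Cd3g) were higher in WT with DSS at an adjusted p under 0.05. In Mbd2KO 1 was, Adgre1. Of 12 epithelial genes, 0 were called in any comparison (medians -0.10 and 0.019), and Epcam gave -0.54 (adjusted p = 0.0615) and 0.20 (adjusted p = 0.533).

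The sums of normalized signal show the range of these markers in each group. The 9 members summed to between 1451 and 1983 in naive WT, 1704 and 3372 in naive Mbd2KO, 2565 and 5406 in DSS WT and 4541 and 4948 in DSS Mbd2KO samples. The pan-leukocyte genes summed to between 1609 and 2181, 1673 and 2848, 2745 and 5164, and 3931 and 4638 in the same order, and the neutrophil genes to between 259 and 299, 271 and 378, 578 and 1547, and 664 and 3479. For both lists sample 3 was the highest DSS WT sample, sample 11 the highest naive WT sample and sample 13 the highest naive Mbd2KO sample, as for the members. Sample 11 was also the highest naive WT sample for the fibroblast, endothelial and smooth muscle lists. In naive Mbd2KO the highest was sample 13 for fibroblast genes and sample 16 for the endothelial and smooth muscle lists. In DSS WT it was sample 4 for each of these stromal lists. The part that other cells had in the level of the members was not tested.

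Stromal genes were read beside the members as well. Of 11 fibroblast genes, 5 were called as higher with DSS in WT (median 1.07) and 0 in Mbd2KO (median 0.48). The interaction was called for 0 of the fibroblast, endothelial and smooth muscle genes, and 0 had an adjusted p under 0.05 by limma, so their response to DSS was not shown to differ. With DSS, 3 of 10 endothelial genes (Esam, Eng and Tek) and 3 of 8 smooth muscle genes (Tagln, Actg2 and Myh11) were called as lower in Mbd2KO than in WT, where the median of the members was 0.46. Of the 11 fibroblast genes 0 were called there, 4 had an adjusted p under 0.05, and all were below 0 (median -0.76). Without DSS 0 stromal genes were called, with medians of -0.14 for fibroblast, -0.37 for endothelial and -0.54 for smooth muscle genes. The list means of the members and of smooth muscle genes in the DSS samples are plotted sample by sample, and DSS Mbd2KO sample 5 had the lowest smooth muscle mean (7.65) beside a mean of 8.38 over the members.

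**Figure D5:**
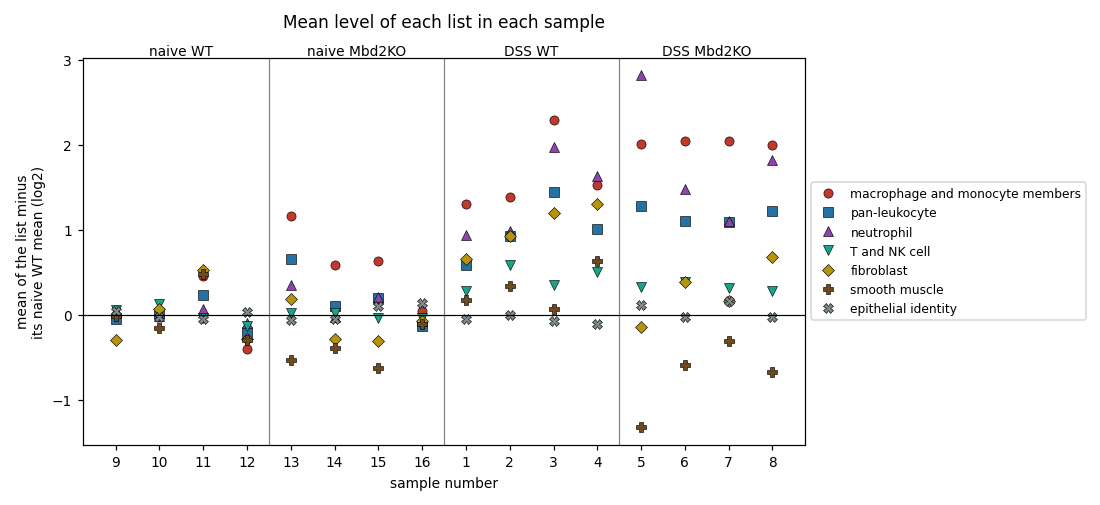
Mean log2 signal of the tested genes of 7 lists in each sample, minus the naive WT mean of the same list. The members (circles) lie above the naive WT mean in all DSS samples and in all 4 naive Mbd2KO samples, pan-leukocyte and neutrophil genes are higher in the DSS samples, and epithelial genes stay near 0.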

How the data were processed

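The deposited table holds, per the file headers, a mean bead intensity for each probe and array with the normalization of the scanner software (GenomeStudio export, GSGX version 1.1.1) set to none. It also gives a detection p-value that the authors' scanner software derived from the negative controls, the number of beads and their standard error. The submitters' processing notes name lumi and limma, without versions. Probes of the members rested on 19 to 60 beads per array.

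From these intensities, 45281 probes of 18 arrays were background-corrected on 936 negative controls and quantile-normalized to log2 values by neqc in limma 3.58.1 (R 4.3.3, offset 16), which compresses changes of dim probes. To be tested, a probe had to be detected (p-value below 0.05) on 4 arrays or more, and 21938 were. Arrays 4R and 5R were averaged with 4 and 5: the SD of their log2 difference was 0.194 and 0.236, against at least 0.287 for all other pairs in their groups. The limma fit had 1 mean for each group over 16 samples, with two-sided tests and Benjamini-Hochberg adjustment within a comparison over all probes tested. A call needed an adjusted p under 0.01 and an absolute log2 fold change of 1 or more. The value of a gene was that of its brightest tested probe after symbols were updated by Entrez identifier (29586 probes matched). The fit was tested on simulated data.

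Named were all members, the sort antigens, at most the 4 called genes with the largest change per list and comparison, and the 5 genes most like the members. Other genes, Lyz1 among them, were named after their values were seen, and some listed genes are not reported here. The members and lists were chosen with earlier results of these data known. Alternatives were another background correction, scaling, offset and filter, other handling of repeat arrays and probes, array weights, fits to fewer groups and leaving out single samples.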

Additional observations from a re-analysis of the deposited data

Results flagged for a closer look

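C1qc in DSS WT sample 3 stood apart from the other samples of its group. Its log2 signal was 8.56, and the gap to the next sample made up 0.855 of the range of the 4 samples. A gap of this size is found by chance in about 1 in 20 groups of 4, and 36 groups (9 members in 4 groups) were looked at. Without sample 3 the log2 fold change of C1qc with DSS in WT stayed called.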

How the results depend on the processing

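In the comparisons between genotypes and for the interaction, 0 members were called under every setting tried and without any single sample. The median of the members between DSS Mbd2KO and DSS WT ran from 0.36 to 0.71 without single samples, that between naive groups from 0.51 to 0.87, and that of the interaction from -0.47 to -0.023. With DSS in WT, 7 to 8 members were called without single samples, with medians of 1.41 to 1.82, and with DSS in Mbd2KO 2 to 7, with medians of 1.25 to 1.78. Without background correction, which leaves a constant background in every signal, 3 members were called in each genotype with DSS, the medians were 0.69 in WT and 0.90 in Mbd2KO, and the naive genotype median was 0.33. An offset of 50 gave a median of 1.07 and 6 calls in WT, where Cd68 (0.93) and Csf1r (0.89) were lost. The call of C1qa in WT was also lost with no filter (adjusted p = 0.0132) and in the fit to the compared groups alone (adjusted p = 0.0223). In Mbd2KO, scaling to a common median gave 8 calls and no filter gave 2. Scaling moved the median of all genes with DSS by 0.27 in WT and 0.25 in Mbd2KO, so these 8 are relative to a shifted centre. The difference of Tyrobp between naive groups, -0.012, turned to 0.0045 with an offset of 50, to 0.060 with array weights and ran from -0.23 to 0.17 without single samples, all with an adjusted p of 0.64 or more. In the interaction, C1qa (0.0043), C1qb (0.00064) and Fcer1g (0.11) turned sign without background correction, Fcer1g (0.015) with an offset of 50, C1qa (0.026) and Fcer1g (0.048) without naive WT sample 12, Lyz2 (0.069) and Fcer1g (0.15) without naive Mbd2KO sample 13, and Lyz2 (0.086) and Fcer1g (0.20) without DSS WT sample 3. Letting the probe listed as Lyz stand for Lyz2, an alternative chosen after seeing the data, changed no call. The BeadChip as a block was not run, since the table names none. No paired analysis was possible because the samples are numbered from 1 to 16 across the groups, so that groups share no number. Tested members other than Lyz2 and Cd14, and the sort antigens other than Epcam, lay near background in naive samples, so the size of their folds depends on the background correction.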
